A study of Mus musculus with 2 samples.

Results

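Eif2ak2, Ifih1, Adar, Stat2, Irf9, Bst2, Ifitm3 and B2m are genes of the response to double-stranded RNA and interferon. They were chosen by symbol from the 32285 genes of a single-cell RNA sequencing experiment on mouse retina at postnatal day 7. Earlier results of these data were known when they were chosen, and all 8 were found. The study compared 1 library of control retinas, labelled Mettl14 fl/fl or fl/wt, with 1 library of Mettl14-cKO retinas, labelled Mettl14 fl/fl;Chx10-Egfp/Cre. Mettl14 encodes a subunit of the complex that writes N6-methyladenosine (m6A) on messenger RNA. Chx10 drives the Cre in retinal progenitors, so the cells that descend from them can carry the deletion, while microglia, blood vessels and mural cells have another origin. Both genotypes carry floxed Mettl14, the control label covers 2 genotypes, and the number of animals behind each library is not given in the labels.

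Cells sense long double-stranded RNA in the cytoplasm with a small set of proteins. Ifih1 encodes the sensor MDA5, whose signal leads to transcription of interferon genes, and Eif2ak2 encodes the kinase PKR, which phosphorylates the translation factor eIF2α and thereby slows protein synthesis. Adar converts adenosine to inosine in paired RNA, which keeps the cell's own transcripts from being sensed. Interferon binds its receptor and brings Stat2 and Irf9 together in a transcription factor complex that binds interferon-stimulated response elements, and Bst2 (tetherin), Ifitm3 and B2m, the light chain of MHC class I, are among the genes it can raise. Loss of m6A has been linked to sensing of a cell's own RNA in other tissues.

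Interferon-stimulated response elements share the core GAAANNGAAA, and it was searched on both strands of the 300 bases around each RefSeq transcription start (build GRCm38.p6, 250 before and 50 after). The core was found at 6 of the 8 genes and at 3.44% of the 32851 promoters of this length. The stretches that hold it are printed for 5 genes, 5′ to 3′ in the direction of transcription, with the core in capitals. A stretch was printed only where the last core ended before the start or close after it, which leaves out Ifih1. The 5 printed genes share the letters, while their ratios below lie on both sides of 1. The promoter of Stat2 holds the core on the opposite strand.
Eif2ak2: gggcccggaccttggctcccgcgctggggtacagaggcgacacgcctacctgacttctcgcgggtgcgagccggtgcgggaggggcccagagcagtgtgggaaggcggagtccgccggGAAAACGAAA
Stat2: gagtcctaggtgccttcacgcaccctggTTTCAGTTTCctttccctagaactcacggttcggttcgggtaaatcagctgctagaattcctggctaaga
Bst2: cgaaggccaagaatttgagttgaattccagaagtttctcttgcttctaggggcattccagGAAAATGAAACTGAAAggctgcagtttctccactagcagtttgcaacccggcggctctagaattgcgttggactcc
Ifitm3: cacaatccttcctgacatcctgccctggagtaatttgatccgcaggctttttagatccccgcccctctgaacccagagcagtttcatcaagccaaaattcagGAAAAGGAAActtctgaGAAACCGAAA
B2m: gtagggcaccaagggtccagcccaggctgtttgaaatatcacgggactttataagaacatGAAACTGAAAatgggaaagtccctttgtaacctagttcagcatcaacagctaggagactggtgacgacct
These stretches lie at chr17:78882545-78882672 on the minus strand for Eif2ak2, chr10:128270248-128270345 on the plus strand for Stat2 and chr8:71537527-71537662 on the minus strand for Bst2. That of Ifitm3 lies at chr7:141010716-141010844 on the minus strand and that of B2m at chr2:122147488-122147617 on the plus strand. Bst2 held 2 overlapping cores and Ifitm3 held 2 separate ones, while Eif2ak2, Stat2 and B2m held 1 each. The sixth gene was Ifih1, with 1 core that starts 33 bases after its start. No core was found in the windows of Adar, which has 3 annotated starts, or Irf9, which has 2. The shorter motif TTCNNNGAA, bound by STAT dimers, was found at 4 of the 8 genes (Eif2ak2, Adar, Bst2 and Ifitm3) and at 8.3% of all promoters. It overlapped the core in Bst2 and Ifitm3.

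Barcodes with at least 1000 unique molecular identifiers (UMIs) numbered 11426 (control) and 13502 (Mettl14-cKO), with a median of 3487 and 3212 UMIs. Marker gates put 9333 and 9189 of them in 9 classes of the retinal lineage and 218 and 307 in classes outside it. The remaining 1875 control barcodes (16.4%) and 4006 Mettl14-cKO barcodes (29.7%) were left unassigned. Rods were 37.2% and 22.03% of barcodes in the 2 libraries, control first, and Müller glia 10.01% and 12.1%. Microglia were 47 and 118 barcodes, astrocytes 75 and 128, mural cells 28 and 32, and endothelial cells 12 and 14. Mettl14, the targeted gene, stood at 27.5 and 14.7 CPM (UMIs scaled to a total of 1000000) in the lineage, a ratio of 0.537 (0.487 to 0.591). In 3′ data this does not show whether the floxed exons were lost, and in microglia Mettl14 held only 1 and 7 UMIs. The libraries shared 39 barcode sequences among those with at least 1000 UMIs, 21 of them in the lineage of both. With 1 library per genotype no test can be made: ratios are Mettl14-cKO over control, and every interval is a 95% interval for counting error only, which leaves out differences between animals and preparations.

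Over the retinal lineage, 4 of the 8 genes were higher in the Mettl14-cKO library (Eif2ak2, Irf9, Bst2 and Ifitm3), B2m was lower, and Adar, Stat2 and Ifih1 were neither. Higher means a level at least 25% above the control, and lower a level at least 20% below it, with Poisson intervals of both levels that do not overlap. By the same rule 19.6% of the 15411 genes with at least 30 UMIs were higher and 17.9% were lower. The 8 genes were chosen with earlier results of these data known. Their counts, here and in single classes, therefore cannot show whether such genes differ more often than others. The UMIs of Eif2ak2 and Irf9 came mostly from barcodes with 1 UMI each. The levels of Bst2 and Ifitm3 rested on few barcodes: without 4 Müller glia barcodes described below, their lineage ratios were 1.17 and 1.42, and neither was past the rule.

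**Figure D1:**
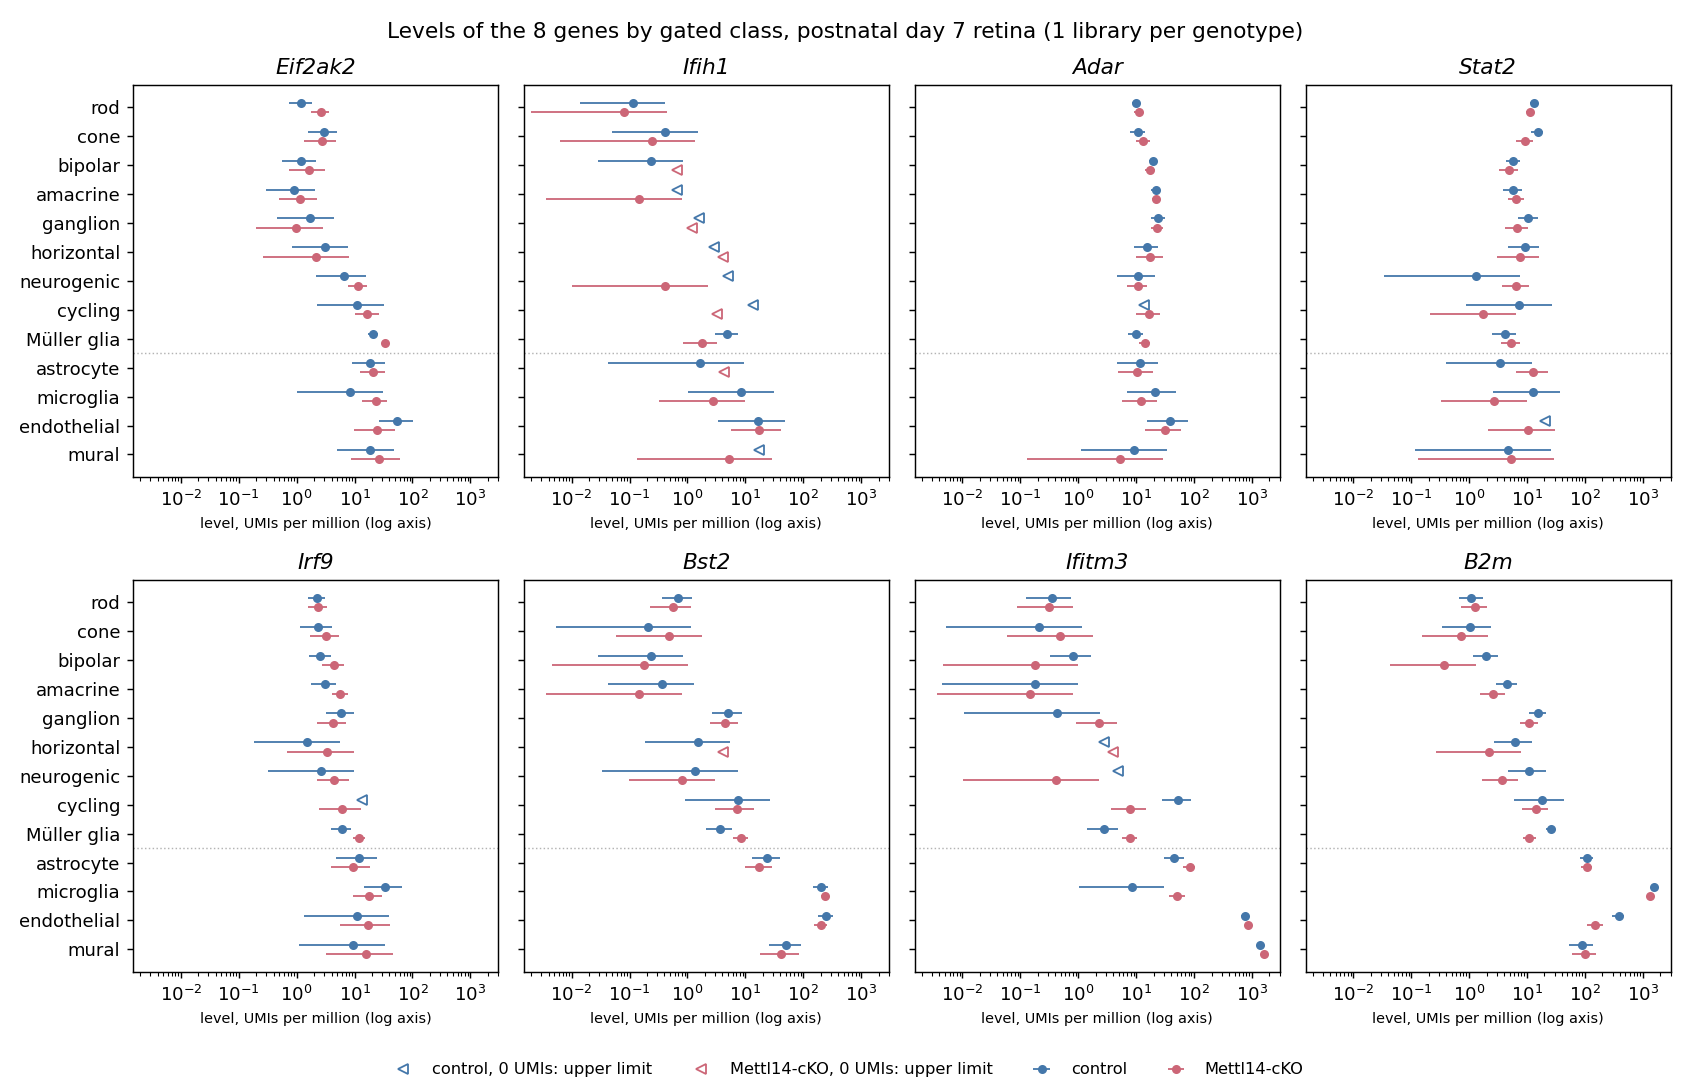
Level of each gene in CPM (log axis) in 13 gated classes of the control (blue) and Mettl14-cKO (red) library, with exact 95% Poisson intervals. Open triangles mark the upper limit where no UMI was found, and the dotted line separates retinal lineage classes above from other cells below. Bst2, Ifitm3 and B2m were highest in cells outside the lineage (B2m 1550 and 1337 CPM in microglia), while Adar and Stat2 differed less between classes.

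The sensor kinase Eif2ak2 had the largest lineage ratio of the 8 genes. Its lineage level was 3.47 CPM in the control library (157 UMIs) and 7.25 CPM in the Mettl14-cKO library (308 UMIs), a ratio of 2.09 (1.72 to 2.55). Its UMIs were spread out: in the Mettl14-cKO library 282 lineage barcodes held them, 259 of these with 1 UMI, and no barcode held more than 4. In the control library Eif2ak2 was highest in endothelial cells, at 55.0 CPM from 10 UMIs, 5 of them in 1 barcode. Müller glia stood at 20.8 CPM, mural cells at 18.5 CPM and astrocytes at 18.4 CPM, with overlapping intervals. Cycling cells were next at 11.1 CPM (2.29 to 32.5). Among control lineage classes amacrine cells (0.894 CPM), bipolar cells (1.17 CPM) and rods (1.21 CPM) were lowest, with intervals that also overlapped. In the Mettl14-cKO library Müller glia were highest at 34.1 CPM. Mural cells (26.2 CPM), endothelial cells (24.3 CPM), microglia (23.1 CPM), astrocytes (20.8 CPM) and cycling cells (16.7 CPM) followed, with intervals that overlapped from each class to the next.

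In Müller glia alone Eif2ak2 went from 20.8 CPM (91 UMIs) to 34.1 CPM (195 UMIs), a ratio of 1.64 (1.27 to 2.12). The share of Müller glia with an Eif2ak2 UMI was 2.88% (1.94 to 4.11, Clopper-Pearson) of control and 4.93% (3.90 to 6.14) of Mettl14-cKO cells after every cell was thinned to 1500 UMIs, which left out 138 and 113 shallower cells. Unthinned, the shares were 7.69% and 10.8%. In rods, which should hold little of it, the thinned shares were 0.234% and 0.402%, at a median depth of 2283 and 2472 UMIs against 3706 and 3384 in Müller glia. The level in rods was 1.21 and 2.60 CPM, a ratio of 2.15 (1.21 to 3.90), but the 2 Poisson intervals overlapped. The 14 Müller glia markers, which rods should hold at most at a low level, summed to 584 CPM in control and 971 CPM in Mettl14-cKO rods. Of the 12 markers with at least 30 UMIs in rods, 4 were higher and 4 lower, so the rise of the sum was not shared by all. The part of stray glial RNA in the rod value was not tested. Where both libraries were weighted to the same class shares, the lineage ratio of Eif2ak2 was 1.57 and still past the rule. Over the lineage barcodes without any UMI of 36 microglial, endothelial or mural markers, which keep only 52 and 71 Müller glia, it was 1.96 from 21 and 37 UMIs and not past it.

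Ifih1, the MDA5 sensor, was rare. It had 27 control and 14 Mettl14-cKO UMIs in the lineage (0.596 and 0.330 CPM), a ratio of 0.553 with an interval that includes 1 (0.268 to 1.09). Müller glia held 21 and 10 of these UMIs, which is 4.81 and 1.75 CPM and a ratio of 0.364 (0.153 to 0.807). The Poisson intervals of the 2 Müller glia levels overlapped, so this was not counted as lower. Endothelial cells had the highest level in both libraries, 16.5 and 17.4 CPM from 3 and 5 UMIs. Of the 2 sensors, PKR transcripts were thus more frequent in Mettl14-cKO Müller glia, and MDA5 transcripts were not.

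Adar, the editing enzyme that masks a cell's own double-stranded RNA, was at 14.2 CPM in control and 15.4 CPM in Mettl14-cKO lineage cells (642 and 652 UMIs), a ratio of 1.08 (0.970 to 1.21). Among control lineage cells it stood at 23.7 CPM in ganglion cells, 22 CPM in amacrine cells and 19.6 CPM in bipolar cells, 3 classes with overlapping intervals, against 10.0 CPM in rods and 9.85 CPM in Müller glia. Over lineage classes the ratio lay between 0.886 in bipolar cells and 1.42 (0.969 to 2.11) in Müller glia, and no class was past the rule. Adar shares its place on chromosome 3 with Chrnb2 on the other strand.

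**Figure D2:**
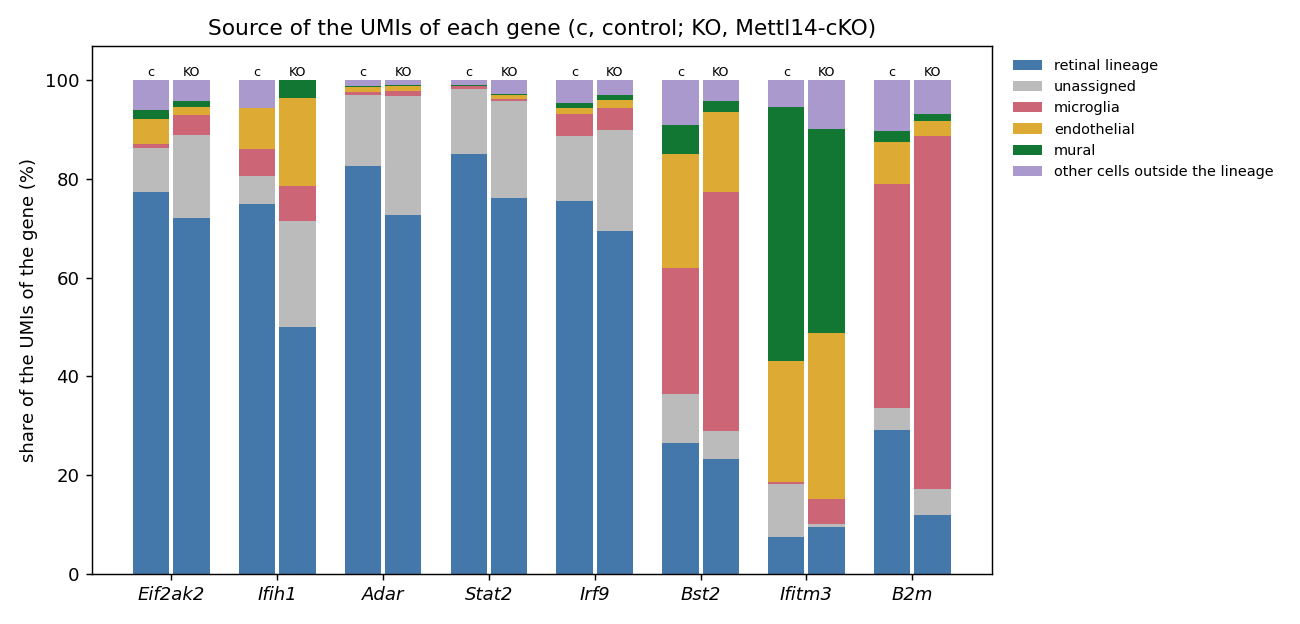
Share of each gene's UMIs (%) that came from retinal lineage, unassigned, microglial, endothelial, mural and other barcodes, control (c) beside Mettl14-cKO (KO). Lineage cells held 82.6% and 72.7% of Adar UMIs but 7.42% and 9.36% of Ifitm3 UMIs, and microglia held 45.4% and 71.5% of B2m UMIs.

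Stat2 and Irf9 are partners in the factor that carries the interferon signal to the nucleus. Over the lineage as a whole their values went opposite ways, but not in every class. Stat2 was at 9.67 CPM in control (438 UMIs) and 7.74 CPM in Mettl14-cKO cells (329 UMIs), a ratio of 0.801 (0.692 to 0.926). The 2 Poisson intervals were apart, but the level was less than 20% below the control, so Stat2 was not counted as lower. It was counted as lower with barcodes marked as doublets removed, with limits on genes and mitochondrial UMIs, with each cell weighing the same, with unassigned barcodes included, and over all barcodes. Stat2 leaned to photoreceptors: of the lineage classes cones (15.2 CPM) and rods (13 CPM) had the highest control levels, with overlapping intervals, and rods alone held 43.7% of all control UMIs. Within rods the level was 13 and 11.3 CPM, a ratio of 0.868 (0.699 to 1.08), and within cones 15.2 and 9.29 CPM, a ratio of 0.610 (0.401 to 0.915) whose 2 Poisson intervals overlapped. The Stat2 ratio was 0.837 in bipolar, 0.641 in ganglion and 1.14 in amacrine cells, with intervals that include 1. In Müller glia Stat2 was at 4.12 and 5.25 CPM (18 and 30 UMIs), a ratio of 1.27 (0.687 to 2.42).

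Irf9 was at 2.94 CPM in control (133 UMIs) and 4.90 CPM in Mettl14-cKO lineage cells (208 UMIs), a ratio of 1.67 (1.34 to 2.09). In Müller glia it went from 5.96 CPM (26 UMIs) to 11.9 CPM (68 UMIs), a ratio of 1.997 (1.254 to 3.27). Amacrine cells (3.04 and 5.66 CPM, ratio 1.86, 1.03 to 3.51) and bipolar cells (2.57 and 4.34 CPM, ratio 1.69, 0.908 to 3.16) had ratios of like size without passing the rule. In rods the level was 2.25 and 2.37 CPM, a ratio of 1.05 (0.630 to 1.73). Irf9 kept its call when the 4 Müller glia barcodes were left out and when class shares were made equal, and lost it (ratio 1.45) over the barcodes without any of the 36 markers. Irf9 overlaps Rnf31 on the same strand of chromosome 14, so reads of one can be counted for the other and its counts are uncertain.

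**Figure D3:**
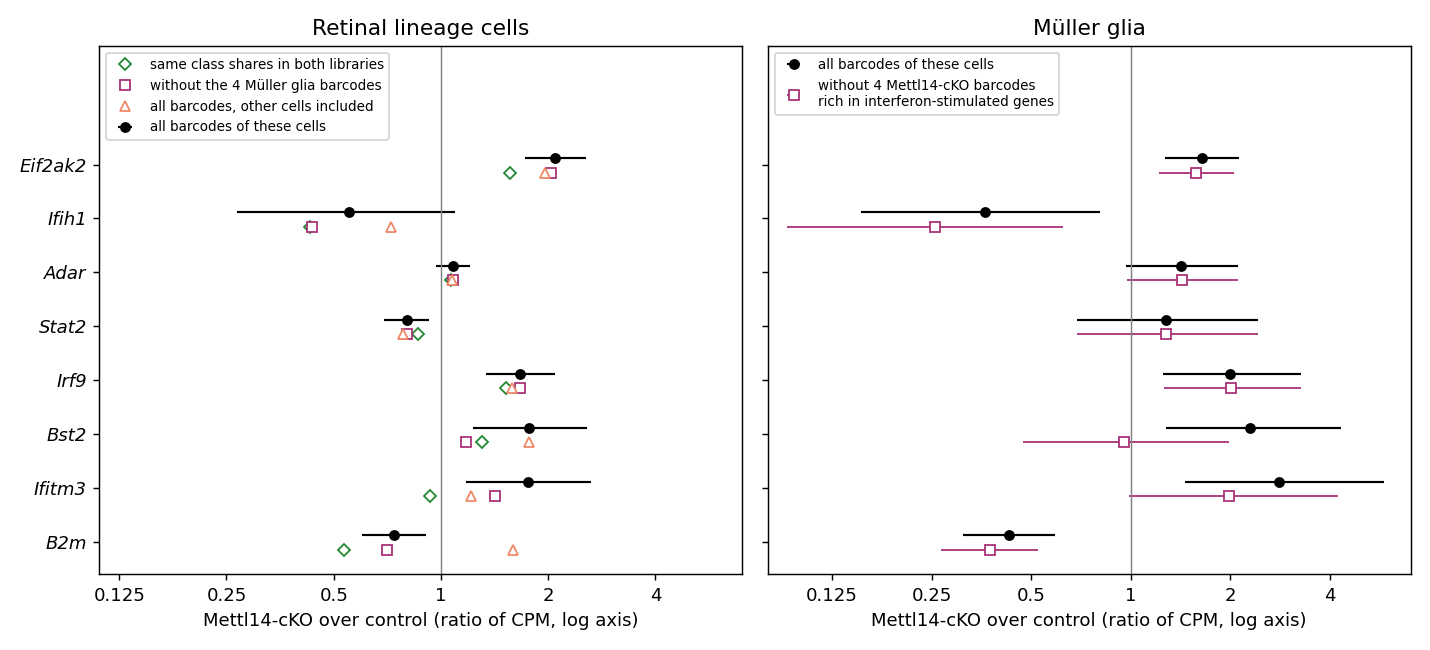
Ratio of Mettl14-cKO to control levels (log axis) over retinal lineage cells (left) and Müller glia (right), filled circles with exact 95% intervals. Open symbols give the same ratio with equal class shares, without the 4 Müller glia barcodes, or over all barcodes. Eif2ak2 and Irf9 stayed above 1 throughout, Bst2 in Müller glia went from 2.29 to 0.957, and B2m went from 0.740 in the lineage to 1.59 over all barcodes.

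Bst2, which tethers budding virus to the cell surface, was found mostly outside the lineage. Microglia stood at 203 and 235 CPM and endothelial cells at 242 and 201 CPM, and neither ratio (1.16 and 0.832) was past the rule. Lineage cells held 50 control and 83 Mettl14-cKO UMIs, 1.10 and 1.95 CPM, a ratio of 1.77 (1.23 to 2.57). In Müller glia Bst2 went from 3.66 CPM (16 UMIs) to 8.39 CPM (48 UMIs), a ratio of 2.29 (1.28 to 4.32). Of those 48 UMIs, 13 and 12 lay in 2 barcodes. The share of Müller glia with a Bst2 UMI, thinned, was 0.994% and 0.986%.

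Ifitm3, which blocks fusion of viral with cellular membranes, was a mural and endothelial gene in these retinas. Every mural barcode held it, 28 of 28 and 32 of 32, at 1350 and 1605 CPM (ratio 1.19), and endothelial cells stood at 765 and 858 CPM. Lineage cells held 42 and 69 UMIs, 0.927 and 1.62 CPM, a ratio of 1.75 (1.18 to 2.64). One control barcode of the cycling class held 14 of the 42. In Müller glia the level went from 2.75 CPM (12 UMIs) to 7.69 CPM (44 UMIs), a ratio of 2.80 (1.45 to 5.82). With equal class shares the lineage ratio was 0.929, and without that 1 cycling barcode it was 2.16 at equal class shares. In microglia Ifitm3 had 2 control and 38 Mettl14-cKO UMIs, 8.47 and 51.6 CPM, a ratio of 6.096 with a wide interval (1.575 to 52.2), and 5.84 with barcodes marked as doublets removed.

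The 14 Müller glia, 12 mural and 11 endothelial markers were read beside these values. In Müller glia the mural list summed to 756 and 666 CPM and the endothelial list to 830 and 750 CPM, so neither list was higher in the Mettl14-cKO cells. Over the whole lineage both sums were higher: the endothelial list stood at 118 and 159 CPM, a ratio of 1.34 (1.29 to 1.39), with Cdh5 and Ly6c1 at 0 in Mettl14-cKO cells, and the mural list at 134 and 150.5 CPM, a ratio of 1.12 (1.08 to 1.16), with no gene at 0. In rods the endothelial list was at 20.6 and 29.9 CPM (ratio 1.45, 1.251 to 1.68) and the mural list at 91.8 and 78.3 CPM. Of the 7 genes of each list with at least 30 UMIs in the lineage, 3 endothelial ones were higher and 2 lower, and 1 mural one was higher and 3 lower. Of the endothelial list 4 of 11 genes were at 0 in control and 3 in Mettl14-cKO Müller glia, and of the mural list 4 and 3 of 12. The defining genes Cdh5, Tie1 and Ly6c1 had no UMI in Müller glia of either library. The 13 microglial markers summed to 18.8 and 21.3 CPM there, a ratio of 1.14 (0.852 to 1.52), with Laptm5 at 0 in control and P2ry12 at 0 in Mettl14-cKO cells. The Müller glia markers themselves summed to 19340 and 12030 CPM, with 11 of 14 lower and 1 higher, and the part of these markers in the values of the 8 genes was not tested.

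Part of the Müller glia values came from 4 barcodes. Each of these, all in the Mettl14-cKO library, held UMIs of at least 4 of 8 interferon-stimulated genes, a set chosen after its values were seen (Isg15, Ifit1, Ifit3, Rsad2, Rtp4, Cxcl10, Iigp1 and Usp18). No lineage barcode of the control library held even 2 of the 8. The 4 barcodes held 1485 to 5912 UMIs, 8 to 11 of the 14 Müller glia markers each and no UMI of any microglial marker, and 1 of them was marked as a doublet. They carried 33 of the 37 Isg15 UMIs of Mettl14-cKO Müller glia, 24 of 25 Ifit1 UMIs, 18 of 19 Ifit3 UMIs and all 15 Rsad2 UMIs. Control Müller glia held 0, 1, 1 and 0 UMIs of these genes. No UMI of Ifnb1 was found in them.

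**Figure D4:**
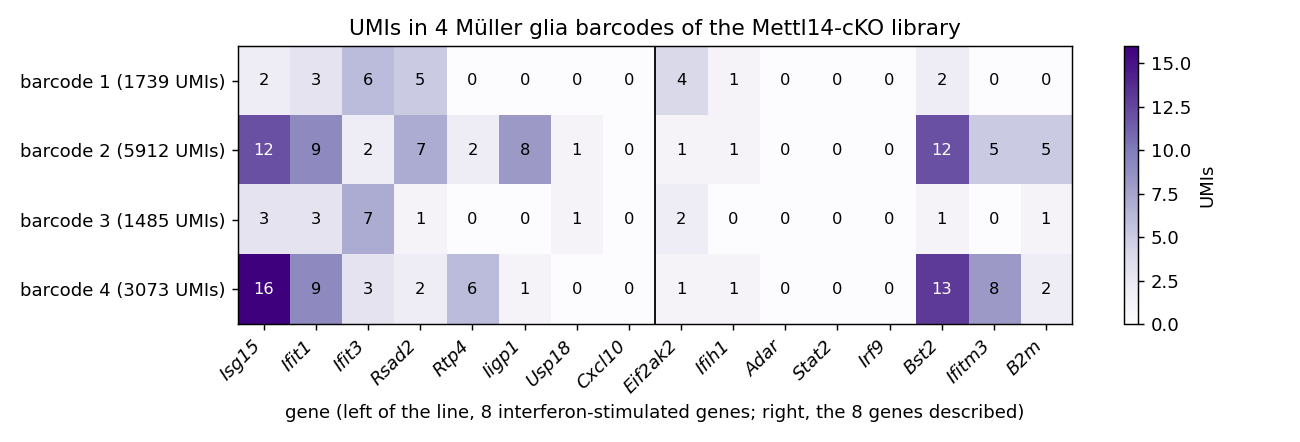
UMIs of 8 interferon-stimulated genes (left of the line) and of the 8 genes described (right) in the 4 Müller glia barcodes of the Mettl14-cKO library, with each barcode's total in its label. Barcodes 2 and 4 hold 12 and 13 Bst2 UMIs, and none of the 4 holds a UMI of Adar, Stat2 or Irf9.

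The members split by these barcodes. They held 28 of the 48 Bst2 UMIs and 13 of the 44 Ifitm3 UMIs of Mettl14-cKO Müller glia, but 8 of 195 Eif2ak2 UMIs and 0 of 68 Irf9 UMIs. Without them the Müller glia ratio of Bst2 was 0.957 (0.471 to 1.97) and that of Ifitm3 1.98 (0.987 to 4.23). Eif2ak2 stayed at 1.57 (1.22 to 2.04) and Irf9 at 2.001 (1.257 to 3.28). Rtp4, a chaperone of receptors that interferon raises, differed from Isg15: 14 of its 22 Müller glia UMIs lay outside the 4 barcodes, against none in control Müller glia. With all barcodes, that is at least 5.60-fold higher against a floor of 3 UMIs over the control Müller glia. Usp18 was also found mostly elsewhere: 9 of its 11 Mettl14-cKO Müller glia UMIs lay outside the 4 barcodes, against 1 UMI in control Müller glia.

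B2m was the one member that was lower. In the lineage it had 235 control and 163 Mettl14-cKO UMIs, 5.19 and 3.84 CPM, a ratio of 0.740 (0.602 to 0.907). Müller glia held more of these UMIs than any other lineage class, with 25.7 CPM (112 UMIs) in control and 11.02 CPM (63 UMIs) in Mettl14-cKO cells, a ratio of 0.430 (0.310 to 0.590). The thinned share of Müller glia with a B2m UMI was 3.98% (2.86 to 5.38) and 1.84% (1.23 to 2.65), and unthinned 8.83% and 3.24%. Rods, near the bottom of the order with cones, had 1.10 and 1.26 CPM and thinned shares of 0.175% and 0.161%. Ganglion cells (15.3 and 10.99 CPM, ratio 0.720, 0.437 to 1.185) and amacrine cells (4.47 and 2.61 CPM, ratio 0.584, 0.3001 to 1.11) had intervals that include 1. In bipolar cells B2m had 17 and 2 UMIs, which is under the 30 needed for a ratio. With equal class shares the lineage ratio was 0.534, with the stricter gate it was 0.772 and not past the rule, and over the barcodes without any of the 36 markers it was 1.202 (38 and 41 UMIs).

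Over all barcodes the direction of B2m was the opposite. Microglia, which present antigen and are rich in MHC class I, stood at 1550 and 1337 CPM, a ratio of 0.863 (0.764 to 0.975), and their barcodes were 0.411% of the control and 0.874% of the Mettl14-cKO library. They held 366 of 806 control and 984 of 1376 Mettl14-cKO UMIs of B2m. Summed over all barcodes B2m was at 14.8 and 23.5 CPM, a ratio of 1.59 (1.46 to 1.74), past the rule as were 19.5% of 16164 genes (18.6% were lower). Of the Mettl14-cKO microglia 30 of 118 were marked as doublets, against 1 of 47 in the control, and 6 erythroid markers summed to 16.9 and 471 CPM in microglia. In endothelial cells B2m was at 380 and 149 CPM, a ratio of 0.393 (0.262 to 0.584), from 12 and 14 barcodes. Of the 14, 9 were marked as doublets, and without them the ratio was 0.191. The 12 mural markers were all at 0 in the control endothelial cells and summed to 764 CPM in the Mettl14-cKO ones, and their part in the value was not tested. In mural cells (87.9 and 99.7 CPM) and astrocytes (107.3 and 107.7 CPM) the intervals of the 2 levels of B2m overlapped.

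In Müller glia the count was the same as in the lineage: Eif2ak2, Irf9, Bst2 and Ifitm3 higher, B2m lower, and 3 neither. There 15.4% of 11707 genes were higher and 12.1% lower. In rods 15.8% of genes were higher and 18.1% lower, and none of the 5 members with at least 30 UMIs in rods (Eif2ak2, Adar, Stat2, Irf9 and B2m) was past the rule. In microglia, where 2.32% of 4059 genes were higher and 2.78% lower, Ifitm3 was the only one of the 3 measured members past it. In endothelial cells, where 3.49% of genes were higher and 4.0% lower, B2m was the only one of 3. None of the members measured in the other classes was past the rule. The shares of all genes that were higher and lower there were 11.9% and 12.8% in cones, 14.7% and 15.9% in bipolar cells, 12.9% and 8.78% in amacrine cells, and 5.8% and 3.77% in ganglion cells. They were 6.98% and 7.44% in neurogenic cells, 2.25% and 2.07% in astrocytes, and 1.56% and 2.56% in mural cells.

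The wider pathway was described by 7 lists, some of which share genes. Of 133 listed genes with at least 30 UMIs in the lineage, 22 (16.5%) were higher and 18 (13.5%) lower, beside 19.6% and 17.9% of all genes, and the median log2 ratio of all genes was -0.02. Among sensors and binding proteins of double-stranded RNA 4 of 30 were higher and 3 lower, with a list median of -0.00 (log2). Besides Eif2ak2 the higher ones included Rnf135, a ubiquitin ligase that activates RIG-I (1.17 and 2.095 CPM), and Adarb2 (17.8 and 25.9 CPM). The lower ones were Trim25 (12.3 and 7.41 CPM, ratio 0.601), Ticam1, the adaptor of TLR3 (2.32 and 1.46 CPM), and Strbp, an RNA-binding protein (210 and 156 CPM). In Müller glia none of the 5 genes named with Eif2ak2 here was past the rule.

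Among genes that relay the signal 6 of 20 were higher and 2 lower, with a median log2 ratio of 0.12. Irf8, a transcription factor that microglia express, stood at 0.728 and 1.93 CPM (ratio 2.65), Fadd at 3.09 and 4.90 CPM, Ripk1 at 4.48 and 5.98 CPM, and Nfkbia, the inhibitor of NF-κB, at 69.7 and 105.5 CPM. Myd88, the adaptor of most Toll-like receptors, was lower at 1.90 and 0.989 CPM. The 13 microglial markers summed to 19.97 and 20.95 CPM over the lineage, a ratio of 1.05 (0.955 to 1.152), with 1 of the 9 that had at least 30 UMIs higher and none at 0, and their part in the value of Irf8 was not tested. Of 21 interferon genes only Ifnz had any UMI in the lineage, 1 control and 6 Mettl14-cKO UMIs. Receptors and the JAK-STAT chain had 5 of 18 higher and 4 lower, with a median of 0.08. Ifnar2, a chain of the interferon-α/β receptor, was at 15.2 and 31.5 CPM (ratio 2.08, 1.90 to 2.28), Ifngr2, a chain of the interferon-γ receptor, at 29.3 and 42.5 CPM, and the feedback inhibitor Socs3 at 1.72 and 4.05 CPM. The kinase Tyk2 (6.36 and 4.87 CPM), the phosphatase Ptpn2 (49.7 and 36.3 CPM) and Pias1 (61.3 and 48 CPM) were lower.

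Among interferon-stimulated effectors 7 of 38 (18.4%) were higher and 4 (10.5%) lower, near or below the 19.6% and 17.9% of all genes, with a median of -0.06, and 4 of the 7 were the members Eif2ak2, Irf9, Bst2 and Ifitm3. Isg15 (12 and 64 UMIs), Dtx3l (35 and 76 UMIs) and Xaf1 (123 and 190 UMIs) were the others, of which Isg15 and Xaf1 were chosen after their values were seen. Nmi, an interferon-induced protein that binds STATs, was lower at 2.67 and 1.77 CPM, as was Trim25. Ifitm2, the close relative of Ifitm3, was lower: 10.7 and 6.76 CPM over the lineage (ratio 0.634, 0.546 to 0.735) and 46.3 and 21.5 CPM in Müller glia. The 2 genes share sequence, so reads of one can be assigned to the other. In MHC class I presentation 0 of 21 were higher and 4 (19.0%) lower, the latter near the 17.9% of all genes, with a median of -0.08. In Müller glia 1 of 15 genes of this list was higher and 3 lower, beside 15.4% and 12.1% of all genes there. H2-K1 (2.98 and 1.72 CPM), a heavy chain that pairs with B2m, H2-T23 (2.72 and 1.55 CPM) and Tapbpl (3.399 and 1.65 CPM) were lower along with B2m, and in Müller glia H2-K1 went from 9.62 to 4.20 CPM (ratio 0.436, 0.253 to 0.737). Heavy chains of MHC class I are near-identical copies, and their counts are uncertain.

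**Figure D5:**
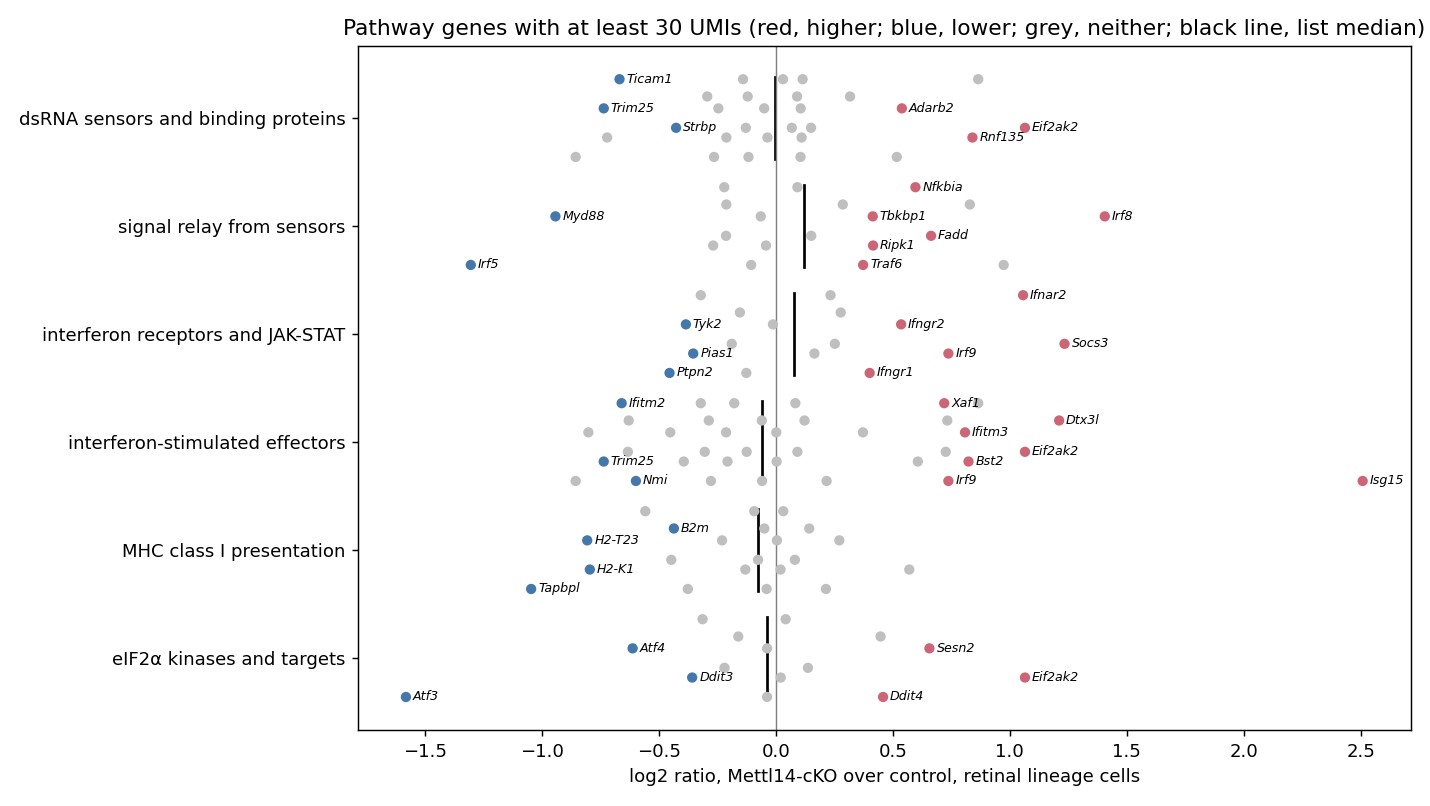
Log2 ratio of Mettl14-cKO to control levels over retinal lineage cells for every listed gene with at least 30 UMIs, 1 point per gene, in 6 lists. Red and blue points were past the rule and are named, a few genes not reported here are not drawn, and black lines give the medians of the whole lists, which lay between -0.08 and 0.12.

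The list of eIF2α, the substrate of PKR, with its kinases and the genes that act after it, had 3 of 15 higher and 3 lower, with a median of -0.04. Eif2ak2 was 1 of the 3 higher ones, with Sesn2 (5.63 and 8.87 CPM) and Ddit4 (30.6 and 42.1 CPM). Atf4, the central transcription factor of this response, was lower at 253 and 165 CPM (ratio 0.655, 0.635 to 0.674), as were Atf3 (3.38 and 1.13 CPM) and Ddit3 (42.2 and 33.0 CPM). In Müller glia, the lineage class with the most Eif2ak2, Atf4 stood at 96.9 and 91.1 CPM (ratio 0.9405, 0.826 to 1.07) and Ddit3 at 25.2 and 13.1 CPM (ratio 0.521). Of the 12 genes of the list with at least 30 UMIs there, 2 were higher and 1 lower, beside 15.4% and 12.1% of all genes. The list median in Müller glia was 0.22, and that of all genes 0.04. The symbol Ddit3 stands for 2 gene identifiers in the files, and the counts are those of ENSMUSG00000025408.

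The 8 genes did not share 1 pattern across cells. Over 24 sums of a class in a library, the gene of 10692 whose log2 level was most like that of Eif2ak2 was Pon2 (Pearson r = 0.963), then Suclg2 and Magt1. For B2m they were Ssr4 (0.964), Ctsz and Cpd, for Bst2 Arpc1b (0.969), Cpd and Cyba, and for Ifitm3 Gng11 (0.939), Col4a1 and Serpinb6a. Irf9 was most like Twf2 (0.904) and Ifih1 most like Slc3a2 (0.871). The closest partners of Adar and Stat2 had lower correlations, Mrtfa for Adar (0.819) and Wdr59 for Stat2 (0.780). These are descriptions without a test, and sums of a library share its depth and its free RNA. Barcodes with UMIs of 3 or more of the 8 genes were 4 among 1144 Müller glia of the control and 12 among 1635 with the deletion genotype. Those 12 include all 4 barcodes described above as holding several interferon-stimulated genes. The share of Müller glia with any of the 8 genes was 23.2% and 23.1%.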

How the data were processed

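Counts were deposited without normalization: per the submitters' processing notes the authors made the UMI counts with Cell Ranger 6.1.1 on mm10, and the labels name the 10x 3′ kit v3.1. The lowest total of a deposited barcode was 500 UMIs. Barcodes with at least 1000 UMIs were kept. Each was gated by the mean z-score (capped at 3) of log(1 + UMIs per 10000) over 16 marker lists (166 genes); a class needed 3 distinct markers, a score of 0.3 and a margin of 0.2, and 509 control and 962 Mettl14-cKO barcodes lay within 0.05 of these limits. Names rebuilt this way may differ from the study's own. Doublets were removed only as far as the gates left mixed barcodes unassigned; Scrublet (scanpy 1.11.5) marked 782 and 1262 barcodes, removed in an alternative. UMIs were summed per class and scaled to CPM. Lineage totals were 45306723 control and 42488365 Mettl14-cKO UMIs. Intervals are exact: Poisson for levels, conditional for ratios and Clopper-Pearson for shares (scipy 1.17.1). Only the ratio intervals and the rule for higher and lower were tried on simulated data. Those were Poisson counts without clustering of UMIs in single barcodes, so they cannot show how the intervals hold for genes with such clustering. Ratios needed 30 UMIs over both libraries. The 8 genes and all lists were chosen with earlier results of these data known. In each list the 4 highest and 4 lowest genes past the rule with at least 100 UMIs are named, with every interferon ligand detected, and for each member the 3 genes most like it by Pearson correlation of log2(CPM + 10) over sums of at least 200000 UMIs. Promoter sequences are from RefSeq, and all 8 genes matched; coordinates of gene overlaps are from GENCODE M21 on GRCm38. Reads, empty droplets and some listed genes were not analysed here, and a few named by the rule are not reported here.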

Additional observations from a re-analysis of the deposited data

Results flagged for a closer look

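Eif2ak2 was also higher in the barcodes that no gate claimed, which the comparisons above leave out. The 1875 unassigned control barcodes held 18 UMIs (2.32 CPM) and the 4006 unassigned Mettl14-cKO barcodes 72 (5.19 CPM), a ratio of 2.24 (1.32 to 3.98), where 13.8% of 13021 genes were higher and 19.4% lower by the same rule. The 13 microglial markers summed to 20.65 and 77.16 CPM and the 14 Müller glia markers to 1135 and 1298 CPM in these barcodes, and their part in the value was not tested.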

How the results depend on the processing

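No paired analysis was possible because each genotype has 1 library and the labels give no replicate numbers. Of 121 lineage ratios of the 8 genes under other settings, 111 stayed within the reported interval; Adar stayed between 0.987 and 1.13, Irf9 between 1.45 and 1.93, Stat2 between 0.760 and 0.863 and Eif2ak2 between 1.57 and 2.34. Leaving out lineage barcodes with any UMI of 36 microglial, endothelial or mural markers kept 5228 and 4702 cells but only 52 and 71 Müller glia; there Bst2 was at 0.297, Ifitm3 at 0.650, B2m at 1.202 and Ifih1 at 2.23, 0 members were higher and 0 lower, 11 pathway genes were lower, and Bst2 in Müller glia had a ratio of 0. Leaving out only barcodes with the 29 rarer markers (added after seeing the data) gave 0 members lower. Equal class shares gave 1.57 for Eif2ak2, 0.929 for Ifitm3 and 0.534 for B2m, 2 members higher and 12 pathway genes higher. Without doublets 2 members were higher and 2 lower, with at least 500 genes and at most 15% mitochondrial UMIs 2 were lower, and with the stricter gate 0 were lower. Of alternatives added after seeing the data, equal class shares without the control cycling barcode with 14 Ifitm3 UMIs gave 2.16 for Ifitm3; counting unassigned barcodes with the lineage gave 0.676 for Ifitm3 and 2 members higher; all barcodes gave 1.59 for B2m and 36 pathway genes higher; leaving out the 4 Müller glia barcodes gave 1.17 for Bst2, 2 members higher and, in Müller glia, 0.957 for Bst2. Of 251 ratios per class 243 stayed within their interval. Shares of cells moved with the thinning depth in 46 of 64 cases. Counts under about 50 UMIs limit Ifih1, Bst2 and Ifitm3.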

Other observations

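The unassigned barcodes differed for Ifitm3 as well, in the other direction. They held 61 control and 5 Mettl14-cKO UMIs, 7.87 and 0.361 CPM, and mural markers there summed to 128 and 81.2 CPM. The control UMIs lay in only 9 of 1875 barcodes, with 22 in 1 of them, and the Mettl14-cKO UMIs in 5 of 4006. By the same rule 19.4% of 13021 genes were lower in these barcodes. Adding these barcodes to the lineage put Ifitm3 at a ratio of 0.676.

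Barcodes with several interferon-stimulated genes were found outside Müller glia too. In the Mettl14-cKO library 1 rod and 1 cycling barcode held 3 of the 8 genes, and 3 of 307 barcodes outside the lineage held at least 4, against 1 of 218 in the control. Erythroid barcodes of both libraries often held at least 1 of the 8, 12 of 29 in the control and 6 of 11 in the Mettl14-cKO library.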
